A study of Mus musculus with 6 samples.

Results

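The lipid phosphate phosphatases described here are 6 mouse genes, Plpp1, Plpp2, Plpp3, Plpp5, Plpp6 and Sgpp1, of the 37620 gene identifiers counted in the series. They were chosen by symbol, with results of the knockout-to-wild-type comparison already known, including that for Plpp1. The values of that comparison are therefore given for these genes as a description, with p-values adjusted over all tested genes, and they are not independent evidence.

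RNA was sequenced from mature brown fat of C57BL/6-background mice, 6 weeks old, in 3 KO libraries labelled PHOSPHO1 knockout and 3 WT libraries labelled wild type. Each library pooled 3 mice. The fat cells were freed with collagenase A and collected as the floating layer after a spin, and the labels name no treatment. How the knockout allele was made, and whether it acts in the whole animal, are not known from the sources used here.

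Lipid phosphate phosphatases are membrane enzymes that remove the phosphate from lipids such as phosphatidate, lysophosphatidate, ceramide 1-phosphate and sphingosine 1-phosphate. At the cell surface they end signalling by lysophosphatidate and sphingosine 1-phosphate, which act through G-protein-coupled receptors, and inside cells they yield diacylglycerol, sphingosine or isoprenoid alcohols. PHOSPHO1, the enzyme named in the genotype, is an unrelated phosphatase that acts on phosphocholine and phosphoethanolamine, the soluble head groups of phospholipids.

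The 6 genes share the first signature motif of this phosphatase fold, a lysine followed after a spacer by arginine and proline. The coding stretch of that motif, located by searching each open frame for the pattern, is shown as a feature the 6 genes have in common. It comes from the GENCODE M21 transcript with the longest open frame of each gene, 5′ to 3′, and the capitals mark the lysine, arginine and proline codons.

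Plpp1: AAGtatactataggcagtttgCGGCCG

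Plpp2: AAGtacatgattggccgtcttCGACCC

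Plpp3: AAAgtgtccatcgggcgcctgAGGCCT

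Plpp5: AAActgatagtgggcaggcccCGCCCA

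Plpp6: AAAgggctggtccgcaggcgcCGACCC

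Sgpp1: AAGgacatcatccgctggccaCGGCCG

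The stretch covers bases 778 to 804 of Plpp1-201 on chromosome 13, 470 to 496 of Plpp2-201 on chromosome 10, and 923 to 949 of Plpp3-201 on chromosome 4. In the other 3 genes it covers bases 363 to 389 of Plpp5-201 on chromosome 8, 589 to 615 of Plpp6-201 on chromosome 19, and 665 to 691 of Sgpp1-201 on chromosome 12. All 6 genes encode the motif, but only 8 of the 27 bases were the same in every one. Between any pair of the 6 transcripts, the longest identical run was 10 to 14 bases, so the members are not near-identical copies of each other. BLAST searches with each member's longest coding transcript kept only strong matches (e-value limit 1e-30). Weaker matches, such as 80% identity over 100 bases, could therefore be missed. Within that limit no other annotated transcript matched a member, apart from genes that overlap it on the opposite strand.

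Those overlaps touch 2 members. Of the exonic bases of Plpp1, 25.8% also lie in exons of Mtrex, an RNA helicase gene on the opposite strand, and 7.07% of those of Plpp6 lie in exons of 4430402I18Rik. The strand setting of the counting was not given in the sources used here, so reads from these stretches cannot be told apart.

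Library totals ran from 10576800 to 13750632 reads in the KO libraries and from 12132987 to 14239307 in the WT libraries, with 39.1% to 56.5% and 39.3% to 54.3% of them from the mitochondrial genome. Phospho1, the gene named in the label, had 18, 15 and 17 reads in the KO libraries and 13, 5 and 5 in the WT libraries. Most of its exonic bases (89.6%) also lie in exons of other genes, so these few reads check the labels little, and KO below stands for the libraries labelled so. The brown adipocyte markers, Ucp1 among them, summed to 23838 to 32438 CPM (counts scaled to library size) in KO and 19524 to 28010 CPM in WT. None of the marker genes of any cell type listed was at 0 in all 6 libraries.

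Plpp1, which encodes the plasma-membrane phosphatase LPP1, was the most abundant member in both groups and the member that rose in the KO libraries. It had 2296, 2050 and 1992 reads in KO libraries 1, 2 and 3, against 1076, 1323 and 829 in WT libraries 1, 2 and 3. On library sizes scaled by the trimmed mean of M-values (TMM), these were 203, 168 and 203 CPM in KO and 60.7, 90.3 and 74.4 CPM in WT. The lowest KO library lay well above the highest WT library, and the spread within each group was small beside the gap between them. The group means were 192 ± 20 CPM in KO and 75.1 ± 14.8 CPM in WT (SD, n = 3 each).

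The log2 fold change of Plpp1 was 1.35 (SE 0.235, 95% interval 0.84 to 1.86), or 2.55-fold higher in KO, with an adjusted p of 0.016 in edgeR's quasi-likelihood test. Among the 12068 tested genes, 1.63% were called higher and 7.52% lower in that comparison. All 6 members passed the filter on low counts, and 1 was called higher and 0 lower. At an unadjusted p under 0.05 in edgeR were 2 of the 6 members and 3718 of the 12068 tested genes. The count of members is thus near that background. DESeq2 and limma-voom likewise called Plpp1 and no other member. The call was lost without KO library 3 (log2 fold change 1.30, edgeR adjusted p = 0.072) and without WT library 1 (1.21, adjusted p = 0.122).

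Mtrex, whose exons overlap the Plpp1 transcript, moved the other way. It had 18.4, 21.2 and 18.1 CPM in the KO libraries and 41.4, 31.1 and 36.1 CPM in the WT libraries, a log2 fold change of -0.91 (edgeR, SE 0.232, adjusted p = 0.036). The KO libraries were thus low in the overlapping gene and high in Plpp1. With the offsets for transcript length and GC described further on, Mtrex was at -0.54 (longest transcript) and -0.75 (median transcript) and did not pass (edgeR adjusted p = 0.135 and 0.077).

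**Figure D1:**
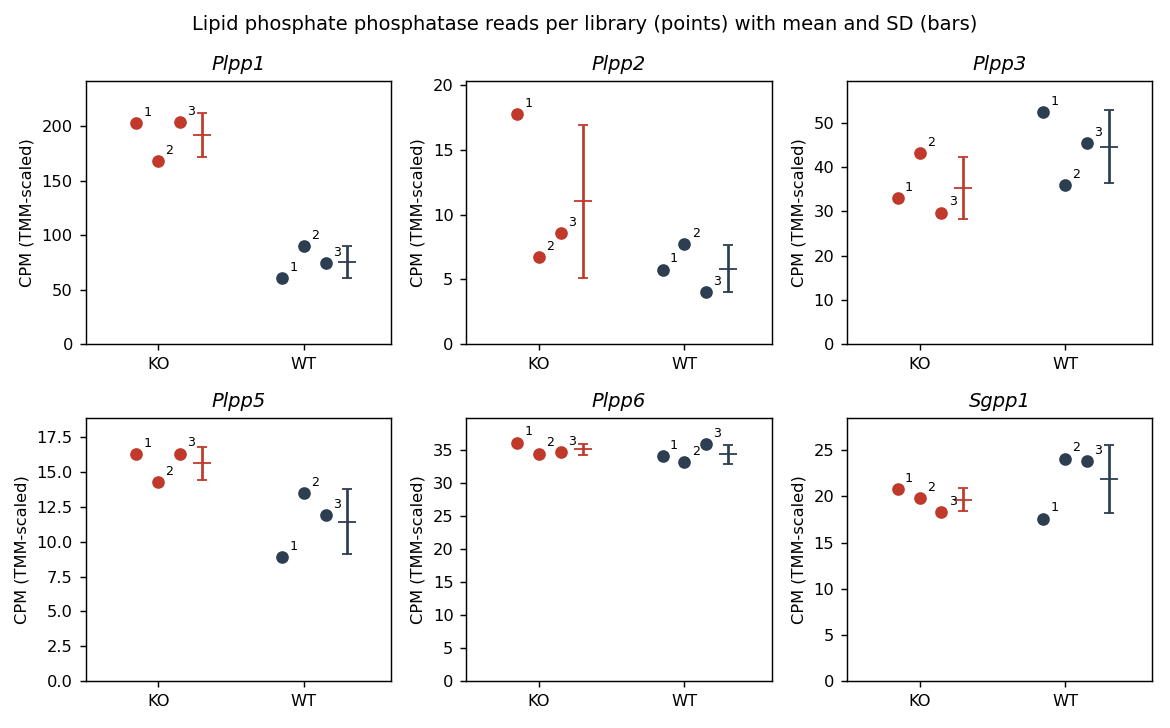
Reads of each phosphatase gene per library in CPM on TMM-scaled library sizes, with KO on the left and WT on the right of each panel. Points are libraries, numbered by replicate, and bars are the mean and SD. Plpp1 lies between 168 and 203 CPM in KO and between 60.7 and 90.3 CPM in WT, and only Plpp1 and Plpp5 show no overlap between the groups.

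Plpp5 was the other member whose groups did not overlap. It encodes a phosphatase of broad lipid preference, and it had 16.3, 14.3 and 16.3 CPM in the KO libraries and 8.91, 13.5 and 11.9 CPM in the WT libraries. The lowest KO value stood just above the highest WT value. Its log2 fold change of 0.45 did not pass (SE 0.256, 95% interval -0.11 to 1.01, edgeR adjusted p = 0.249). Members whose KO libraries all exceeded the WT libraries were thus 2 of 6, and 15.8% of all tested genes did so; 0 of 6 had all KO libraries below WT, against 19.6% of tested genes.

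Plpp2, which encodes LPP2, was the least even member. It had 17.8, 6.73 and 8.58 CPM in the KO libraries and 5.75, 7.71 and 4.04 CPM in the WT libraries. KO library 1 alone was high, and KO library 2 lay below WT library 2. The log2 fold change was 0.91 (SE 0.387, 95% interval 0.07 to 1.76, edgeR adjusted p = 0.137), and without KO library 1 it was 0.39 (adjusted p = 0.507).

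Plpp3 encodes LPP3, a surface phosphatase known for limiting lysophosphatidate signalling in blood vessels. It had 33.0, 43.1 and 29.7 CPM in the KO libraries and 52.3, 35.9 and 45.3 CPM in the WT libraries. KO library 2 exceeded WT library 2, so the groups overlapped. The log2 fold change of -0.34 did not pass (SE 0.248, 95% interval -0.88 to 0.20, edgeR adjusted p = 0.365).

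Plpp6, which encodes a phosphatase of presqualene and other isoprenoid diphosphates, was the steadiest member. It had 36.1, 34.5 and 34.7 CPM in the KO libraries and 34.1, 33.1 and 35.9 CPM in the WT libraries, so all 6 libraries lay within a narrow band. The log2 fold change was 0.03 (SE 0.214, 95% interval -0.44 to 0.50, edgeR adjusted p = 0.935).

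Sgpp1 encodes the sphingosine 1-phosphate phosphatase of the endoplasmic reticulum, which recycles sphingosine for ceramide synthesis. It had 20.8, 19.9 and 18.3 CPM in the KO libraries and 17.6, 24.1 and 23.9 CPM in the WT libraries. The KO values fell inside the WT range. The log2 fold change of -0.15 did not pass (SE 0.238, 95% interval -0.67 to 0.37, edgeR adjusted p = 0.676).

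The relatives Plpp4, Sgpp2 and Plpp7 were near or below detection. Plpp4 had 0 reads in all 6 libraries, and Sgpp2, the second sphingosine 1-phosphate phosphatase, had 1 read in KO library 1, 1 in WT library 1 and 0 in the others. Plpp7, a relative of Plpp6 that is thought to lack catalytic activity, had 12, 13 and 10 reads in the KO libraries and 10, 15 and 10 in the WT libraries.

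Levels of different genes were compared per length, as RPKM, which is CPM divided by the annotated exon length in kilobases. In KO, Plpp1 stood at 109 ± 12 RPKM, followed by Plpp6 at 12.3 ± 0.3, Plpp3 at 11.2 ± 2.2, Plpp2 at 6.67 ± 3.58, Plpp5 at 4.43 ± 0.33 and Sgpp1 at 3.48 ± 0.22 RPKM (SD, n = 3). In WT, Plpp1 stood at 42.9 ± 8.5 RPKM, followed by Plpp3 at 14.1 ± 2.6, Plpp6 at 12.0 ± 0.5, Sgpp1 at 3.87 ± 0.65, Plpp2 at 3.53 ± 1.11 and Plpp5 at 3.25 ± 0.66 RPKM. Plpp1 was therefore first in both groups, far above the rest. Plpp3 and Plpp6 did not differ beyond their spread in either group, nor did the lowest 3 genes in WT or Plpp2 and Plpp5 in KO. In KO, Plpp5 and Sgpp1 did not overlap.

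The place of Plpp5 rested on the length used, because its 15 annotated transcripts, some with retained introns, give it 3528 exonic bases, against a median of 1287 bases per transcript. With median transcript lengths it stood at 12.1 RPKM in KO and 8.90 RPKM in WT, beside Plpp3 at 11.2 RPKM in KO and 14.1 RPKM in WT. Plpp1 kept first place under each of the 3 lengths tried, at 109 to 133 RPKM in KO and 42.9 to 52.3 RPKM in WT.

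The make-up of the family therefore differed between the labelled groups. Plpp1 supplied 73.4%, 72.0% and 77.1% of the reads per kilobase of the 6 genes in KO libraries 1, 2 and 3, and 48.0%, 59.1% and 53.5% in WT libraries 1, 2 and 3. Plpp3 supplied 6.60%, 10.2% and 6.24% in KO and 22.9%, 13.0% and 18.1% in WT. Plpp6, whose level was steady, supplied 8.36% ± 0.59 in KO and 15.2% ± 1.7 in WT, and Sgpp1 supplied 2.37% ± 0.25 in KO and 4.84% ± 0.51 in WT (SD, n = 3 each). A lower share was thus not particular to Plpp3, since a larger share of Plpp1 leaves less for the others. For each read of Plpp3 there were 6.16, 3.90 and 6.85 reads of Plpp1 in the KO libraries and 1.16, 2.52 and 1.64 in the WT libraries. Scaling by library size does not change this ratio. Neither the ratio nor the shares were corrected for the trend with transcript length given further on. The ratio and the share of every member but Plpp2 did not overlap between the groups. The shares within a library depend on each other, so this count does not describe each gene on its own. In CPM only Plpp1 and Plpp5 did not overlap, both with KO higher, as 15.8% of all tested genes did. All of these shares and ratios restate the member values above and received no test of their own. The 6 genes together summed to 308 ± 20 CPM in KO and 193 ± 13 CPM in WT (SD, n = 3 each).

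**Figure D2:**
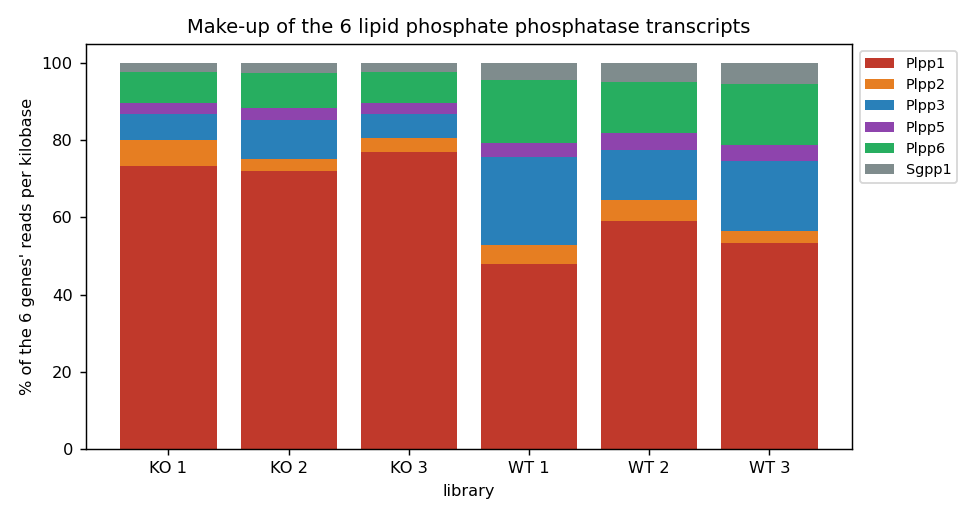
Share of each gene in the summed reads per kilobase of exon of the 6 phosphatase genes, in percent, for each library, with KO libraries on the left. Plpp1 fills 72.0% to 77.1% of the KO bars and 48.0% to 59.1% of the WT bars.

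Transcript length moved with the groups across all genes, and values under a correction for it are therefore given. The slope of each library's log2 expression deviation on log2 length of the longest transcript was -0.238, -0.093 and -0.249 in KO libraries 1, 2 and 3 and 0.306, -0.025 and 0.2996 in WT libraries 1, 2 and 3. Plpp1 has the shortest longest transcript of the 6 genes, at 1598 bases, and Sgpp1 the longest, at 3323 bases. With offsets for the longest transcript and for GC, Plpp1 was at 0.92 (SE 0.172, 95% interval 0.53 to 1.30), or 1.89-fold, and no longer passed (edgeR adjusted p = 0.062). Only 1 gene of all tested passed in that fit. With the median transcript length in its place, Plpp1 was at 1.22 (edgeR, SE 0.213, adjusted p = 0.049) and passed.

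The other members moved with the offsets too, and none passed in either fit. With the longest transcript, the log2 fold change of Plpp2 was 0.40, that of Plpp3 -0.36, that of Plpp5 0.26, that of Plpp6 -0.02 and that of Sgpp1 0.03. With the median transcript length these 5 values were 0.68, -0.03, 0.45, 0.32 and 0.36.

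**Figure D3:**
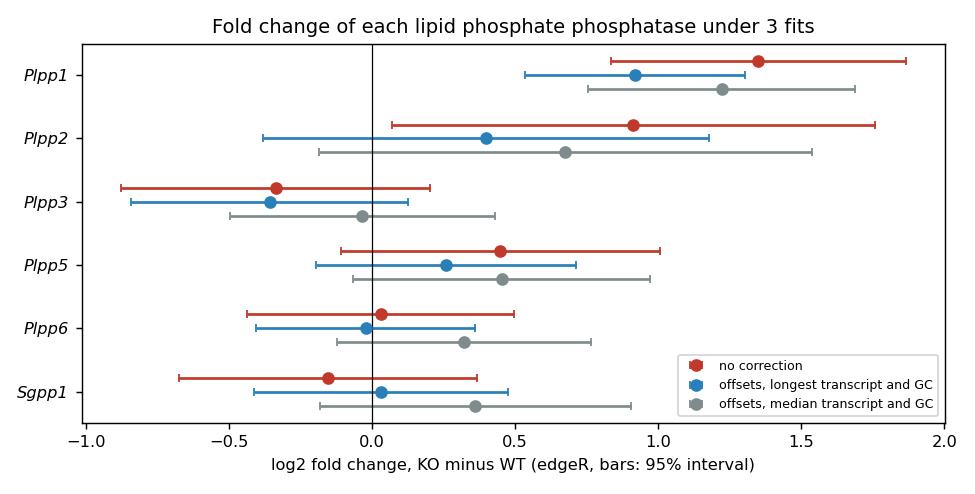
Log2 fold change (KO minus WT) of each phosphatase gene in edgeR with no correction and with 2 kinds of offset (transcript length and GC), with 95% intervals as bars. The Plpp1 intervals lie above 0 in all 3 fits, at 1.35, 0.92 and 1.22, while the intervals of Plpp3, Plpp5, Plpp6 and Sgpp1 include 0 in each.

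Summed markers of 2 of the 7 other cell types listed, stromal cells and leukocytes, were separate between the groups. Such separation was common among single genes. The KO libraries all lay above WT in 15.8% of tested genes and all below in 19.6%. The 9 stromal markers summed to 1202 to 1579 CPM in KO and 960 to 1121 CPM in WT, with 2 called higher and 0 lower. The 9 macrophage and leukocyte markers summed to 239 to 509 CPM in KO and 110 to 218 CPM in WT, with 1 called higher and 1 lower. The 10 endothelial markers summed to 646 to 761 CPM in KO and 542 to 708 CPM in WT, with 0 called higher and 2 lower. The 9 mural markers summed to 512 to 951 CPM in KO and 874 to 1333 CPM in WT, with 3 called higher and 1 lower. The 7 erythroid markers summed to 1210 to 3506 CPM in KO and 366 to 1378 CPM in WT, the 8 skeletal muscle markers to 28.3 to 91.0 CPM in KO and 30.3 to 918 CPM in WT, and the 4 Schwann cell markers to 71.4 to 96.0 CPM in KO and 48.6 to 77.1 CPM in WT. The sums of the endothelial, mural, erythroid, muscle and Schwann cell markers overlapped between the groups. The high muscle sum was that of WT library 3 alone, at 918 CPM, against 30.3 and 68.0 CPM in WT libraries 1 and 2. Of the erythroid markers 5 were tested, with 2 called higher and 0 lower, of the muscle markers 6, with 0 called by edgeR, DESeq2 or limma-voom and 0 at an unadjusted p under 0.05, and of the Schwann cell markers 3, with 0 called higher and 1 lower. Of the 12 brown adipocyte markers 1 was called higher and 2 lower. Over all tested genes the shares were 1.63% higher and 7.52% lower. The part of these cell types in the Plpp1 result was not tested, and in these bulk libraries more cells of a type and more RNA per cell cannot be told apart.

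The rest of the pathway was described from 81 related genes, of which 60 were tested, 1 was called higher and 6 lower. Over all tested genes 1.63% were called higher and 7.52% lower, so these counts are near that background. Their median log2 fold change was 0.11, beside 0.03 over all tested genes. Every gene named as higher or lower below lost its call under the offsets with the longest transcript. The calls of these lists were also 0 in each direction without KO library 3 and without WT library 1.

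Among the 8 tested makers of lysophosphatidate and sphingosine 1-phosphate, 0 were called higher and 1 lower, with a median of 0.28. Enpp2, or autotaxin, the secreted enzyme that makes lysophosphatidate and is abundant in fat, had 85.0, 116 and 81.1 CPM in the KO libraries and 157, 158 and 187 CPM in the WT libraries. Every KO library was below every WT library. Its log2 fold change was -0.83 (edgeR, SE 0.232, adjusted p = 0.047), and with the offsets it was -0.64 (adjusted p = 0.104).

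Among the 9 tested receptors and transporters, 1 was called higher and 1 lower, with a median of 0.30. Lpar4, a lysophosphatidate receptor, had 1.33, 0.574 and 0.511 CPM in the KO libraries and 8.97, 5.87 and 3.86 CPM in the WT libraries, a log2 fold change of -2.94 (edgeR, SE 0.464, adjusted p = 0.016). S1pr2, a sphingosine 1-phosphate receptor, had 5.22, 3.12 and 4.39 CPM in KO and 2.14, 1.77 and 0.897 CPM in WT, a log2 fold change of 1.37 (edgeR, SE 0.390, adjusted p = 0.049). Both genes separated the groups, in opposite directions. With the offsets they were at -2.07 and 1.81 (edgeR adjusted p = 0.062 and 0.064).

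Among the 16 tested enzymes of phosphatidate and diacylglycerol, 0 were called higher and 2 lower, with a median of 0.03. Lpin1 encodes lipin 1, the soluble phosphatidate phosphatase of triglyceride synthesis. It had 44.8, 60.9 and 62.8 CPM in KO and 120, 80.7 and 136 CPM in WT, a log2 fold change of -0.996 (edgeR, SE 0.259, adjusted p = 0.039). Dgke, a diacylglycerol kinase that returns diacylglycerol to phosphatidate, averaged 6.65 ± 2.71 CPM in KO and 18.3 ± 5.6 CPM in WT (SD, n = 3 each), a log2 fold change of -1.46 (edgeR, SE 0.355, adjusted p = 0.032). With the offsets Lpin1 was at -0.59 and Dgke at -0.68 (edgeR adjusted p = 0.102 and 0.252). Without offsets, the membrane-bound phosphatase Plpp1 was called higher and the soluble phosphatase Lpin1 lower in the same comparison. Neither call held with the longest-transcript offsets (edgeR adjusted p = 0.062 for Plpp1 and 0.102 for Lpin1). A link between the 2 genes was not tested.

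Among the 18 tested sphingoid base and ceramide enzymes, 0 were called higher and 2 lower, with a median of 0.02. Cers6, a ceramide synthase with preference for palmitoyl-CoA, averaged 1.43 ± 0.46 CPM in KO and 6.17 ± 1.78 CPM in WT, a log2 fold change of -2.10 (edgeR, SE 0.373, adjusted p = 0.016). Asah2, the neutral ceramidase, averaged 6.34 ± 1.38 CPM in KO and 16.9 ± 7.0 CPM in WT (SD, n = 3 each), a log2 fold change of -1.41 (edgeR, SE 0.344, adjusted p = 0.032). With the offsets they were at -1.34 and -0.50 (edgeR adjusted p = 0.062 and 0.298).

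Among the 7 tested relatives of the same phosphatase fold, 0 were called in either direction by edgeR, with a median of -0.16. At an unadjusted p under 0.05 in edgeR were 2 of the 7, near the background of 3718 of 12068 tested genes. DESeq2 called 1, Samd8, where it called 493 higher and 1350 lower of 11733 genes, and limma-voom called 0. The 2 with the smallest p in edgeR were Samd8, a ceramide phosphoethanolamine synthase, at -0.84 (edgeR adjusted p = 0.053), and G6pc3, a glucose 6-phosphatase, at 0.66 (adjusted p = 0.120). With the offsets Samd8 was at 0.05 and G6pc3 at 0.09 (edgeR adjusted p = 0.891 and 0.843), so the sign of Samd8 turned. Of the 2 phosphocholine phosphatase relatives, Phospho1 was at 1.53 (edgeR adjusted p = 0.056) and Phospho2 at -0.02 (adjusted p = 0.971), and with the offsets they were at 1.02 and 0.47 (adjusted p = 0.198 and 0.175).

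**Figure D4:**
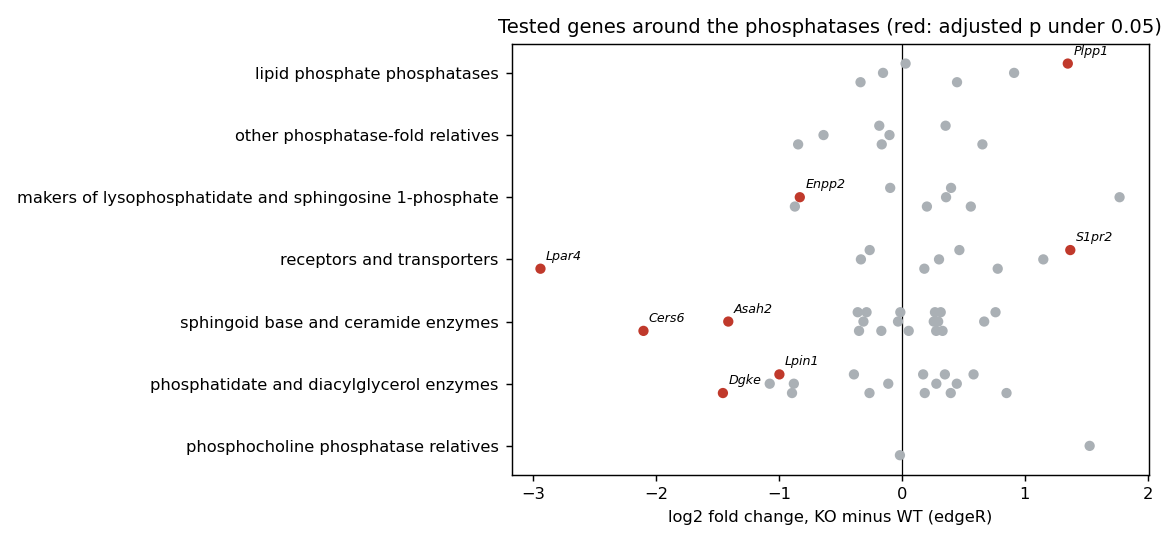
Log2 fold change (KO minus WT, edgeR) of every tested gene of the phosphatase family and of 6 related lists, 1 point a gene, shifted vertically for legibility. Named red points passed an adjusted p of 0.05: Plpp1 at 1.35 and S1pr2 at 1.37 on the higher side, and 6 genes from Lpar4 at -2.94 to Enpp2 at -0.83 on the lower side.

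Genes with the most similar profile over the 6 libraries were ranked by the root mean square difference of centred log2 CPM, among 10800 other genes with a mean of at least 1 CPM. Nearest to Plpp1 were Myl12a, a myosin regulatory light chain, Trmo, a tRNA methyltransferase, and Pola2, a subunit of DNA polymerase alpha, at 0.141, 0.141 and 0.147, where the profile of Plpp1 itself had a root mean square of 0.707. Nearest to Plpp2 were Cd48, Ppp4c and Josd2 (0.091, 0.095 and 0.105), nearest to Plpp3 were Zfp592, Trim12a and Utp6 (0.063, 0.077 and 0.079), and nearest to Plpp5 were Timm17a, Smarcd2 and Tceal9 (0.032, 0.047 and 0.054). Nearest to Plpp6 were Xkr8, Glb1 and Fam168b (0.028, 0.039 and 0.044), against a root mean square of 0.043 for Plpp6 itself, so this flat profile sets few genes apart. Nearest to Sgpp1 were Arl4a, Exosc9 and Dolpp1 (0.062, 0.063 and 0.063). No member was among the nearest 3 genes of another.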

How the data were processed

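The authors deposited raw counts, whole numbers of reads per Ensembl gene, in 1 file per library. Per the submitters' processing notes, STAR 2.5.4b and the build mm9 were used; which program counted the reads, on which annotation and strand, is not given in the sources used here. Symbols, lengths and GC content came from GENCODE M21 on GRCm38, so only chromosomes are printed; 32897 of 37620 identifiers matched, and the rest held 0.178% of counts.

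Counts were analysed with edgeR 4.0.16 in R 4.3.3: filterByExpr (minimum count 10, minimum total 15), TMM scaling, and the quasi-likelihood F test (robust, two-sided), Benjamini-Hochberg adjusted over 12068 genes at 0.05. The scripts were tested on simulated counts. Offsets were smooth terms (basis size 6, mgcv 1.9.3) of transcript length and GC content fitted to each library's log2 deviation (prior count 2). Other alternatives were RLE scaling, total counts, DESeq2 1.42.0, limma-voom 3.58.1, other filters, a replicate block, each library left out, no mitochondrial genome genes, and a threshold of 0.01. Near copies were sought with BLAST 2.17.0 (e-value 1e-30).

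The members and lists were chosen with earlier results of these data known. In the related lists, every gene past the threshold was named, up to 6, or otherwise the 2 with the smallest p; each member's 3 nearest profiles skip predicted genes and pseudogenes. S1pr1, Dgkd, Plpp4, Plpp7, Sgpp2, Mtrex and 4430402I18Rik were named after their values were seen. No pair of libraries held identical values. Each library is 1 pool of mice, so the errors are those between pools.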

Additional observations from a re-analysis of the deposited data

How the results depend on the processing

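Plpp1 was positive under all 16 alternatives and passed the threshold of 0.05 under 13. Its log2 fold change was 0.92 with offsets for the longest transcript, and leaving out 1 library gave 1.21 to 1.51. The number of members called higher was 0 with those offsets, at a threshold of 0.01, without KO library 3 and without WT library 1 (range 0 to 1 over libraries left out), and 1 otherwise. The sign turned for genes near 0 that never passed: Plpp6 was at -0.23 with total counts, -0.023 with no filter and -0.022 with the longest-transcript offsets, and Sgpp1 was at 0.032 and 0.36 with the 2 offsets. The causes of these shifts were not tested.

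Over all genes, 197 were higher and 908 lower. Total counts gave 29 and 1389 and moved the median log2 fold change from 0.03 to -0.23, DESeq2 gave 493 higher, the offsets gave 1 and 0 (longest transcript; 2786 at an unadjusted p under 0.05) or 81 and 141 (median), and a threshold of 0.01 gave 1 and 0. Leaving out 1 library gave 0 to 688 higher and 0 to 1383 lower, 0 of each without WT library 1 and 2 and 0 without KO library 3 (edgeR; 2251 and 2672 at an unadjusted p under 0.05).

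Of the related genes, 1 was higher and 6 lower. Total counts gave 0 and 10, DESeq2 3 higher, limma-voom 0 higher, the longest-transcript offsets 0 and 0, and leaving out 1 library 0 to 1 higher and 0 to 10 lower.

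Deviations from the group means in same-numbered KO and WT libraries correlated at 0.14, -0.53 and 0.03, so the numbers were not taken as pairs. Only WT library 1 correlated best with the library of its own number in the other group. With the replicate number as a block, 223 genes were higher and 976 lower, and Plpp1 was at 1.36 (edgeR adjusted p = 0.0037). Leaving mitochondrial genome genes out of the library size, with the TMM factors kept as they were, moved all 12 RPKM means beyond 1 SD. For Plpp1 they moved to 223 in KO and 78.8 in WT. With those genes left out of the edgeR fit and the factors recomputed, the log2 fold change of Plpp1 was 1.34 (adjusted p = 0.017). Plpp2 had 45 to 201 reads per library, which limits its precision.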

Other observations

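S1pr1, the main sphingosine 1-phosphate receptor of endothelium, and Dgkd, a diacylglycerol kinase, were picked once their values had been seen, because both lay at the threshold. S1pr1 had 268, 241 and 338 CPM in the KO libraries and 159, 165 and 168 CPM in the WT libraries. Every KO library exceeded every WT library, and the WT values were close together. The log2 fold change was 0.78 (SE 0.224, edgeR adjusted p = 0.0502), just short of passing, and 0.79 with the longest-transcript offsets (adjusted p = 0.065), so its size was nearly the same in both fits. Dgkd had 46.7, 64.6 and 47.3 CPM in the KO libraries and 117, 71.3 and 106 CPM in the WT libraries, so every KO library was below every WT library. Its log2 fold change was -0.89 (SE 0.258, edgeR adjusted p = 0.0503), and -0.54 with the same offsets (adjusted p = 0.124).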
